A study of Homo sapiens with 12 samples.

Results

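The genes described here are 43 interferon-stimulated genes, all found among the 20003 named genes of the deposited expression table. They were taken by name from a list that was chosen with earlier results of these data known. They were divided by role into 30 antiviral effectors, 4 sensors of viral nucleic acid and 9 regulators of the response. RNA-seq gave the expression values, taken from 3 human lines of non-small-cell lung cancer in all of which EGFR is mutated and active. The lines are PC9 (PC-9 in the cell line label), HCC827 and H1975, and the sample titles add OR to each of these names, which the labels do not explain. Within each line, cells carrying a vector that expresses ZNF263, a zinc finger transcription factor, were set against cells carrying a control vector, with 2 libraries per group and 12 libraries in all. Cells of both vectors in every line had received osimertinib, an inhibitor of mutant EGFR, in a stepwise manner and were grown in DMEM. The labels do not say whether the cells carrying a vector were a clone or a pool, nor whether the 2 libraries of a group were grown separately. The p-values therefore reflect the variation seen between such libraries, and part of it may be technical.

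Interferons are secreted proteins that warn cells of viral infection. Type I interferons bind the receptor chains IFNAR1 and IFNAR2, whose kinases JAK1 and TYK2 phosphorylate STAT2, which joins IRF9 in the complex ISGF3, and this complex binds the interferon-stimulated response element (ISRE) in the promoters of target genes. Interferon gamma acts through IFNGR1 and IFNGR2 and a different promoter element, GAS. Some carcinoma lines transcribe such genes in culture without added interferon.

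The element that gives the group its name is shown here for 8 members whose values follow, 5 that fell with ZNF263 in H1975 (IFI27, IFI6, IFIT1, ISG15 and IFITM1), 2 that rose there (IFITM3 and BST2) and 1 that passed the test in no line (GBP1). The stretches come from the 250 bases before a RefSeq gene start on GRCh38.p14, read 5′ to 3′ on the gene's own strand with 15 bases on either side. For a gene with more than 1 such window, the one with the most ISRE matches was taken. This applied to IFI27, which had 2 windows. Capitals mark each match to the ISRE core TTTCNNTTTC or its reverse complement GAAANNGAAA.
IFI27, chr14:94110613-94110665, plus strand: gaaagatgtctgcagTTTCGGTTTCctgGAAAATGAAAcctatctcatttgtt
IFI6, chr1:27672261-27672363, minus strand: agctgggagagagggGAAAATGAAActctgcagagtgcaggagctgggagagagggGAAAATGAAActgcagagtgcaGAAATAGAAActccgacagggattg
IFIT1, chr10:89392492-89392544, plus strand: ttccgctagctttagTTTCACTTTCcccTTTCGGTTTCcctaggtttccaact
ISG15, chr1:1013369-1013414, plus strand: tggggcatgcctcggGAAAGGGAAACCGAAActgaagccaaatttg
IFITM1, chr11:313985-314024, plus strand: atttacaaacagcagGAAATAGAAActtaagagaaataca
IFITM3, chr11:320871-320927, minus strand: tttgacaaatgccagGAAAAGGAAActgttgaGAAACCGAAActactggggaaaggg
BST2, chr19:17405730-17405775, minus strand: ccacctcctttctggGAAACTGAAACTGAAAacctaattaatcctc
GBP1, chr1:89065311-89065350, minus strand: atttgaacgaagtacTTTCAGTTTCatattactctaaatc

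Over the members, 35 of 43 had a window, and 23 of these 35 (65.7%) held the ISRE core at least once, against 3.71% of 27305 genes with a window and 3.25% of the 9901 such genes that were tested in H1975. The core was present in 20 of 25 effectors, 1 of 3 sensors and 2 of 7 regulators. The GAS letters TTCNNNGAA, which read alike on both strands, were in 10 of the 35 (28.6%), against 8.09% of all genes, and in 3 members a GAS match overlapped an ISRE match. GGAGGA or TCCTCC, a short string searched because ZNF263 is known to favour GGA-rich DNA, was in 16 of the 35 (45.7%), against 35.7% of all genes and 43.1% of those tested. A match is a description of letters, not a site or a cause. OAS2, OASL, MX2, IRF7, IFIT2, USP18, DHX58 and TRIM22 had no entry.

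ZNF263 itself was measured first. It stood at 39.3 and 39.0 FPKM (fragments scaled to gene length and library size) in the ZNF263 libraries of PC9, against 9.55 and 9.11 in the control libraries. In HCC827 it stood at 19.6 and 19.8 FPKM with ZNF263, against 13.2 and 11.8 with control, and in H1975 at 39.1 and 39.8 FPKM with ZNF263, against 10.2 and 9.63 with control. The gain was thus smaller in HCC827, where the log2 change was 0.62, than in PC9 (1.96) or H1975 (1.89). Within a line, the depth of the libraries relative to control replicate 1 lay between 0.924 and 1.05. The epithelial keratins KRT8, KRT18 and KRT7 were at 405 FPKM or more in every library. In PC9 the epithelial markers EPCAM (0.224 and 0.278 FPKM with ZNF263, 0.414 and 0.168 with control) and KRT19 (0.262 and 0 with ZNF263, 0 in both control libraries) were at or near 0. In H1975, EPCAM, CDH1, KRT7, KRT19 and KRT18 changed by -2.79, -2.23, -2.11, -1.61 and -0.23 with ZNF263, and KRT8 by 0.24. Of 11 leukocyte markers, the defining genes PTPRC and CD3E were at or near 0 in all 12 libraries and CD14 and CD68 were the 2 that were tested. The summed FPKM of the leukocyte markers in H1975 was 85.0 and 79.3 with ZNF263, against 85.6 and 85.0 with control, and CD14 stood at 21.7 and 18.7 FPKM with ZNF263, against 2.22 and 3.96 with control, a rise of 2.40, while CD68 stood at 62.9 and 60.0 FPKM with ZNF263, against 83.1 and 80.9 with control, a change of -0.41. The part of these marker changes in the results was not tested.

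The 3 lines stood at different levels. The mean log2(FPKM + 1) over the 43 genes was 1.23 and 1.23 in the ZNF263 libraries of PC9, against 1.12 and 1.09 in its control libraries. In HCC827 it was 3.45 and 3.40 with ZNF263, against 3.51 and 3.36 with control. In H1975 it was 2.96 and 2.93 with ZNF263, against 3.82 and 4.08 with control. The groups of H1975 were thus well apart, those of PC9 were apart by a small step, and the ZNF263 libraries of HCC827 lay between its control libraries. PC9 was treated as a table made separately from the others, which the labels do not state. Its level is therefore set beside theirs only as a description. In PC9, 23 of the 43 genes reached 1 FPKM in at least 1 library, against 41 in HCC827 and 43 in H1975.

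**Figure D1:**
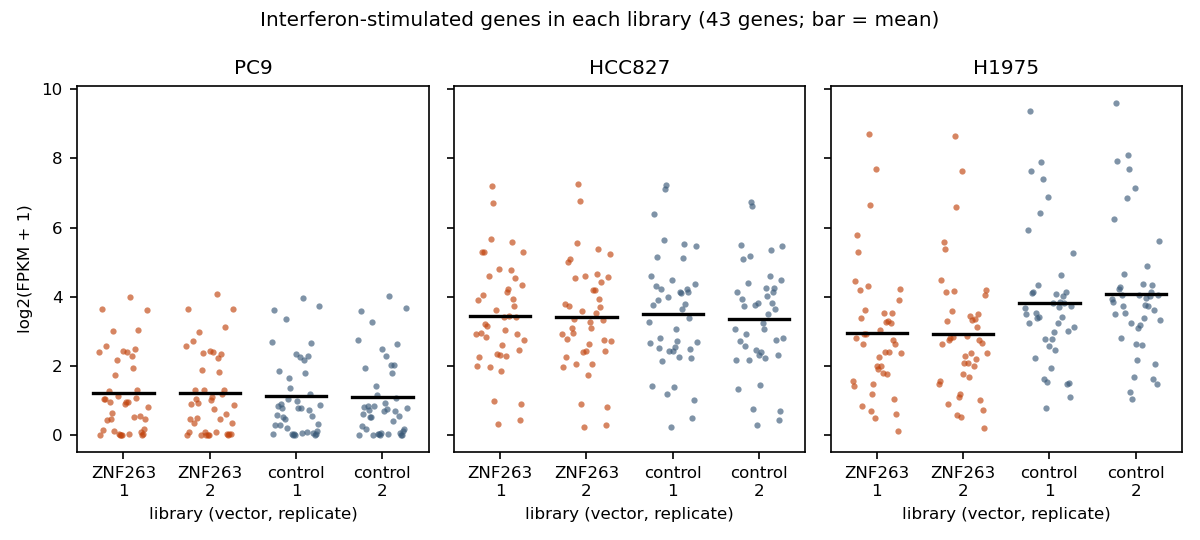
Level of each of the 43 genes in each library, as log2(FPKM + 1), for PC9, HCC827 and H1975, with ZNF263 libraries in orange and control libraries in blue; the black bar is the mean. In H1975 the means were 2.96 and 2.93 with ZNF263, against 3.82 and 4.08 with control.

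In H1975 most of the group fell. Changes were tested with limma on log2(FPKM + 1), with the spread of a gene shared by all 6 groups and p-values adjusted by the Benjamini-Hochberg method over all genes tested, and 0.05 was the limit for a call. By this test 37 of the 43 genes (86.0%) fell with ZNF263, 3 rose and 3 did not pass, whereas 32.1% of all 12258 genes tested fell and 32.1% rose. The median change of the 43 was -0.90 on the log2 scale, against 0.00 over all genes tested, and 18 of them were lower by at least 1. By role, 25 of 30 effectors, 4 of 4 sensors and 8 of 9 regulators fell, with median changes of -0.91, -0.88 and -0.85. The 37 genes that fell also had both ZNF263 values below both control values, and the 3 that rose had both above, against 40.8% and 41.7% of all genes. In bulk libraries, fewer cells that express a gene and less RNA per cell cannot be told apart.

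All 43 genes passed the filter, which asked for 1 FPKM or more in any 2 of the 12 libraries, but RSAD2, CMPK2 and TRIM22 reached 1 FPKM in control libraries only, so their passing the filter and their falls are not independent. Over the other 40 genes, 34 fell and 3 rose in H1975, with a median of -0.86. The number of genes that fell was 37 without each of the 12 libraries in turn.

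The largest fall was that of IFI27, a mitochondrial protein and one of the genes most induced by type I interferon (chromosome 14, 94104836 to 94116698, GRCh38). It stood at 54.3 and 46.6 FPKM in the ZNF263 libraries, against 665 and 781 in the control libraries. The change was -3.81 ± 0.26 (SE, n = 2 per group; limma adjusted p = 4.17e-08). In the control libraries IFI27 alone made up 35.1% and 34.4% of the summed FPKM of the 43 genes, whereas in the ZNF263 libraries it made up 5.14% and 4.60%. Without IFI27, the sum was 1003.3 and 966.7 FPKM with ZNF263, against 1227.5 and 1488.6 with control.

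IFI6, an inhibitor of viral replication at the endoplasmic reticulum, stood at 38.1 and 40.5 FPKM with ZNF263, against 197.7 and 242.6 with control, a change of -2.45 ± 0.21 (limma adjusted p = 3.32e-07). IFITM1, a membrane protein that blocks virus entry, stood at 18.7 and 17.0 FPKM with ZNF263, against 84.0 and 114.9 with control, a change of -2.40 ± 0.15 (limma adjusted p = 2.16e-08). Both genes were several times lower in each ZNF263 library than in either control library.

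The OAS enzymes make 2-5A, the second messenger that activates the RNA-degrading enzyme RNase L. OAS1, OAS3 and OAS2 lie in that order on chromosome 12 between 112906777 and 113011723 (GRCh38), about 5.1 kb apart. OAS1 stood at 1.94 and 1.77 FPKM with ZNF263, against 11.8 and 14.4 with control, a change of -2.30 ± 0.098 (limma adjusted p = 5.99e-10). OAS2 changed by -2.16 and OAS3, the most abundant of the 3, by -1.63, at 20.9 and 21.4 FPKM with ZNF263, against 60.1 and 75.5 with control. OASL, a relative without the enzymatic activity that lies elsewhere on the chromosome, stood at 6.03 and 5.19 FPKM with ZNF263, against 8.47 and 10.4 with control. Its change of -0.66 was the smallest of the family, and less the median change of its 20 nearest tested genes it was -0.22 (limma adjusted p = 0.0667).

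MX1, a dynamin-like GTPase that traps viral nucleocapsids, stood at 1.27 and 1.15 FPKM with ZNF263, against 5.80 and 8.39 with control, a change of -1.85 ± 0.13 (limma adjusted p = 4.46e-08). IFI44L and its neighbour IFI44, which lie 3.7 kb apart on chromosome 1, changed by -1.66 and -0.86. SAMD9, a restriction factor of poxviruses, changed by -1.49 and its neighbour SAMD9L by -0.52. PLSCR1, a phospholipid scramblase, changed by -1.22, at 17.7 and 17.2 FPKM with ZNF263, against 37.2 and 47.5 with control. For each of these genes the values of the 2 vectors did not overlap.

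The IFIT proteins bind viral RNA that lacks the marks of host messages. Their 4 genes lie side by side on chromosome 10 between 89283694 and 89421001 (GRCh38), and each fell. IFIT1 stood at 5.24 and 5.75 FPKM with ZNF263, against 10.6 and 15.6 with control, a change of -1.10 ± 0.13 (limma adjusted p = 7.23e-06). IFIT3, IFIT2 and IFIT5 changed by -0.90, -0.69 and -0.59. ISG15, a ubiquitin-like modifier, stood at 99.96 and 95.6 FPKM with ZNF263, against 169 and 204 with control, a change of -0.92 ± 0.15 (limma adjusted p = 0.000162).

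The remaining effectors that fell include genes of several activities. RSAD2 (viperin, which makes a chain-terminating nucleotide) and CMPK2, which overlap on opposite strands of chromosome 2, changed by -1.09 and -1.10. Since no strand setting is given in the sources used here, their reads may not be fully separable. TRIM22, a ubiquitin ligase, stood at 0.0918 and 0.162 FPKM with ZNF263, against 1.15 and 1.76 with control, which represents 9 and 16 reads with ZNF263, against 115 and 162 with control. PARP12, an ADP-ribosyltransferase, changed by -0.83, ISG20, an exonuclease, by -0.78, HERC6 by -0.67 and XAF1, a pro-apoptotic protein, by -0.67. The fall of XAF1 was -0.38 without H1975 control replicate 2 and still passed the test (limma adjusted p = 0.00228).

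All 4 sensors fell. IFIH1 (MDA5) and DDX58 (RIG-I), helicases that bind long and short viral RNA, changed by -1.03 ± 0.11 and -0.97 ± 0.092 (limma adjusted p = 3.73e-06 and 1.03e-06). IFIH1 stood at 3.03 and 3.26 FPKM with ZNF263, against 6.94 and 8.07 with control. DDX58 stood at 7.24 and 6.29 FPKM with ZNF263, against 13.1 and 15.4 with control. DHX58 (LGP2), which tunes both helicases, changed by -0.79, and EIF2AK2 (PKR), the kinase that halts translation on double-stranded RNA, by -0.74. The sensors were close to each other in their change, between -1.03 and -0.74.

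Among the regulators, IRF7, the factor that amplifies interferon production, changed most. It stood at 2.40 and 3.01 FPKM with ZNF263, against 13.3 and 14.7 with control, a change of -2.02 ± 0.15 (limma adjusted p = 9.42e-08). IRF9, the DNA-binding subunit of ISGF3, stood at 8.81 and 9.32 FPKM with ZNF263, against 23.7 and 28.8 with control, a change of -1.43 ± 0.11 (limma adjusted p = 1.24e-07). STAT2, its partner, stood at 4.33 and 4.15 FPKM with ZNF263, against 8.43 and 9.53 with control, a change of -0.93 ± 0.077 (limma adjusted p = 3.14e-07). IRF7, IRF9 and STAT2 were thus each lower in both ZNF263 libraries than in either control library.

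The ADP-ribosyltransferases PARP9 and PARP14 lie 116.0 kb apart on chromosome 3 and changed by -1.27 and -0.46. SP110, a nuclear body protein, changed by -0.85. USP18, which removes ISG15 from proteins and dampens the receptor, changed by -0.73, and IRF1, a factor also induced by interferon gamma, by -0.43. IFI35, a binding partner of NMI, was the 1 regulator that did not pass. It stood at 17.2 and 16.7 FPKM with ZNF263, against 16.3 and 17.5 with control, a change of 0.01 ± 0.12 (limma adjusted p = 0.972).

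**Figure D2:**
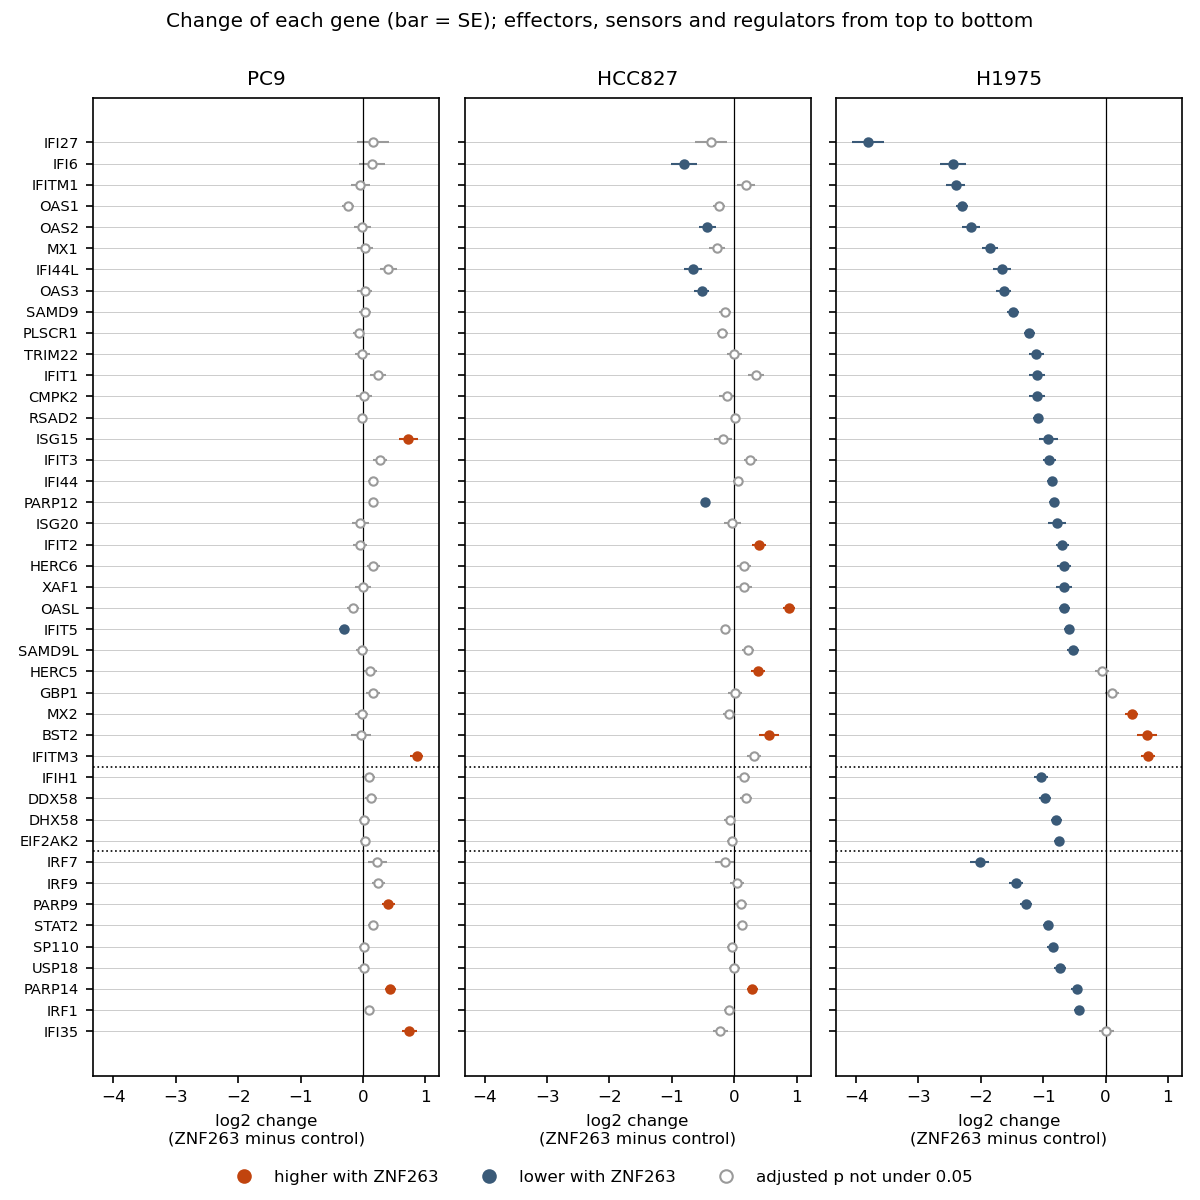
Log2 change (ZNF263 minus control) of each gene in PC9, HCC827 and H1975, with effectors, sensors and regulators from top to bottom; bars are the SE, orange and blue points passed the test and open points did not. In H1975, 37 genes were lower and 3 higher; in HCC827, 5 and 5; in PC9, 1 and 5.

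Of the genes that did not fall in H1975, 3 rose. IFITM3, which blocks virus entry at endosomes, stood at 419 and 398 FPKM with ZNF263, against 237 and 272 with control, a change of 0.68 ± 0.11 (limma adjusted p = 0.000132). It lies 4.4 kb from IFITM1 on chromosome 11, which fell by 2.40. IFITM2, a near-identical relative outside the 43 genes, rose by 0.96. Reads may be divided uncertainly among these copies, and both IFITM1 and IFITM3 carry the ISRE core in the stretches printed above.

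BST2 (tetherin), which holds budding virions at the cell surface, stood at 207 and 199 FPKM with ZNF263, against 117 and 140.0 with control, a change of 0.66 ± 0.16 (limma adjusted p = 0.00243). The genes around BST2 on chromosome 19 also rose in H1975, with a median of 0.85 over the 20 nearest tested genes. Less that median, BST2 stood at -0.19 (limma adjusted p = 0.308), so its direction depends on this comparison.

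MX2, a relative of MX1 known to restrict HIV, stood at 1.78 and 1.27 FPKM with ZNF263, against 0.710 and 1.07 with control, a change of 0.42 ± 0.10 (limma adjusted p = 0.00344). This call did not hold under several settings: the change was 0.18 less the median of its neighbours (limma adjusted p = 0.157), 0.27 without H1975 ZNF263 replicate 1 (0.0534), 0.42 in a fit on the 4 H1975 libraries alone (0.0534) and 0.28 without H1975 control replicate 1 (0.0508). MX1, 10.9 kb away on chromosome 21, fell by 1.85. HERC5, the ligase that attaches ISG15, stood at 2.73 and 3.24 FPKM with ZNF263, against 2.83 and 3.48 with control, a change of -0.06, and its neighbour HERC6 fell by 0.67. GBP1, a guanylate-binding protein mainly induced by interferon gamma, stood at 14.1 and 15.6 FPKM with ZNF263, against 12.3 and 15.4 with control, a change of 0.10.

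**Figure D3:**
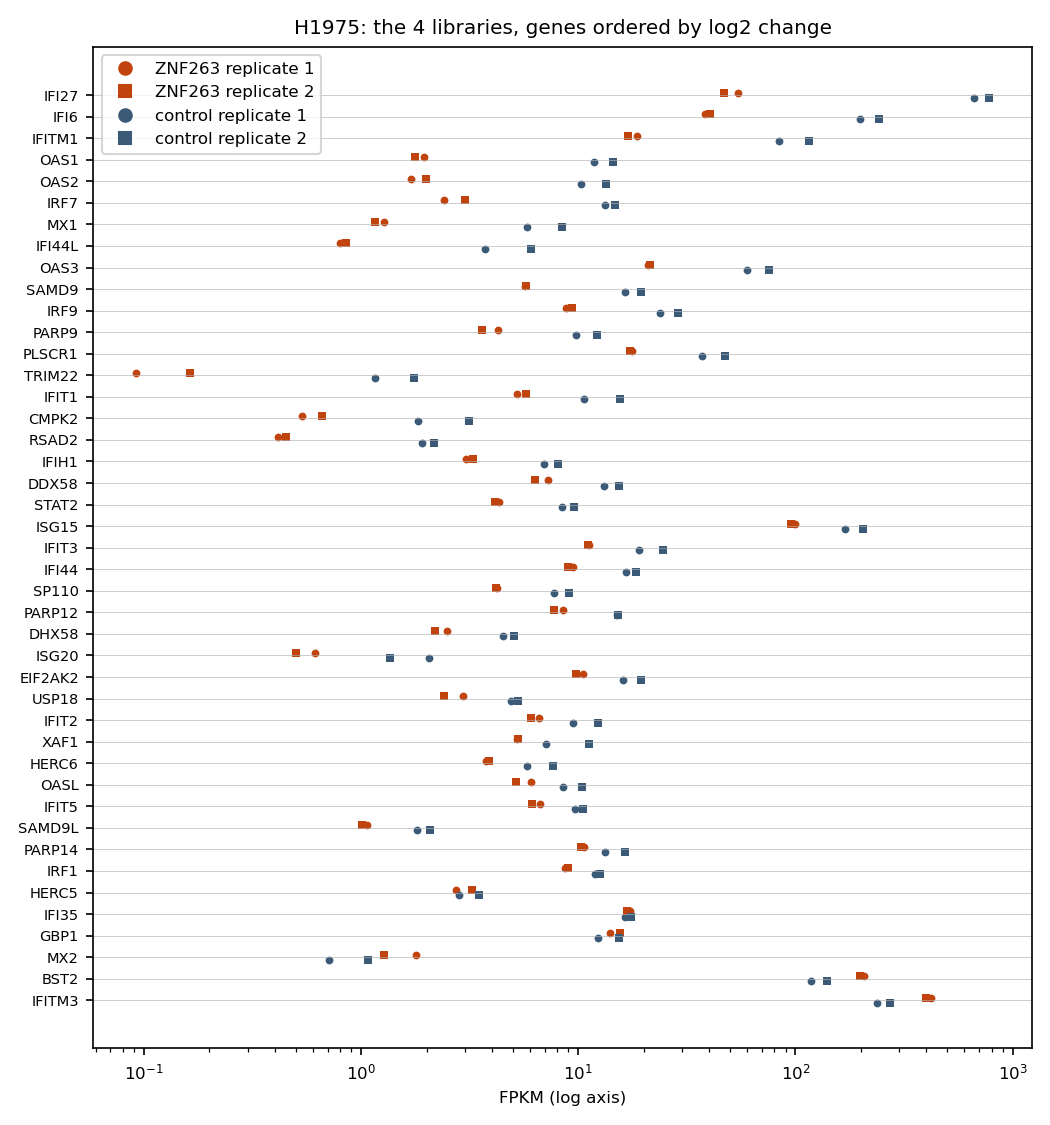
FPKM of each gene in the 4 libraries of H1975 on a log axis, ordered by log2 change from the largest fall at the top; orange marks ZNF263 libraries and blue control libraries, circles replicate 1 and squares replicate 2. IFI27 stood at 54.3 and 46.6 FPKM with ZNF263, against 665 and 781 with control, and IFITM3, at the bottom, at 419 and 398 FPKM with ZNF263, against 237 and 272 with control.

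To set each change in H1975 beside its surroundings on the chromosome, it was also taken less the median change of its 20 nearest tested genes outside the group. By this measure 36 genes were lower and 2 higher. The adjusted p-values less neighbours were recomputed from limma's SE of the change and leave out the spread of the median. The share of all genes called by this measure was not counted, so these counts have no background beside them. IFI27 stood at -3.34 less a neighbour median of -0.48, and USP18 and TRIM22 fell although their neighbours had medians of 0.38 each. IFI35 stood at 0.33 less its neighbours (limma adjusted p = 0.0264), so it was the second gene called higher beside IFITM3.

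**Figure D4:**
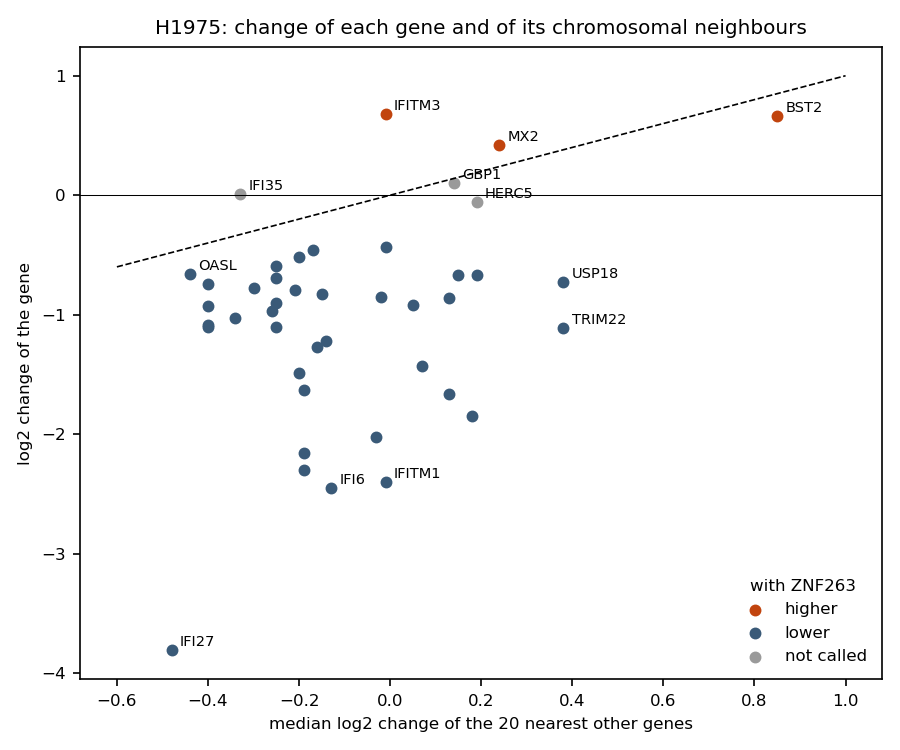
Log2 change of each gene in H1975 against the median log2 change of its 20 nearest other tested genes; the dashed line marks equal values and the colours the call. BST2 (0.66, neighbours 0.85) lies under the line, and IFI27 (-3.81, neighbours -0.48) lies far below it.

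Members with and without the ISRE core were among the genes that fell in H1975. Of the 23 members with the core 19 fell, with a median change of -1.03, and of the 12 members without it 11 fell, with a median of -0.80. Across the 43 genes, the change correlated weakly with the level in the control libraries (Pearson r = -0.31 and Spearman rho = -0.21, as a description, since each change uses the same control values).

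Upstream of these genes, receptor and kinase genes were measured in H1975, where 32.1% of all genes tested rose and 32.1% fell. Of 10 interferon ligands, 6 had no value in H1975. IFNB1 was listed at 0 in both ZNF263 libraries, against 0.173 and 0.187 FPKM with control. IFNL1 stood at 0.038 and 0 FPKM with ZNF263, against 0.224 and 0.0809 with control. IFNL2 was at 0 in both ZNF263 libraries, against 0.122 and 0.0329 FPKM with control. IFNB1, IFNL1 and IFNL2 were below the filter and were not tested. IFNE, the 1 ligand tested, stood at 0.919 and 0.496 FPKM with ZNF263, against 0.531 and 0.404 with control. Its change was 0.21 (limma adjusted p = 0.145), or 0.60 less its neighbours (0.000839). Of 6 receptor chains 4 rose and 1 fell. IFNGR1, the ligand-binding chain for interferon gamma, stood at 67.2 and 72.9 FPKM with ZNF263, against 18.4 and 17.5 with control, a rise of 1.90 ± 0.082 (limma adjusted p = 6.90e-10). IFNGR2 rose by 0.56, IFNAR2 by 0.34 and IL10RB by 0.37, of which the last 2 did not pass less their neighbours (0.17 and 0.20; limma adjusted p = 0.108 and 0.0527). IFNAR1 stood at 0.14 and did not pass. IFNLR1, the chain specific to interferon lambda, stood at 0.151 and 0.299 FPKM with ZNF263, against 1.72 and 1.57 with control, a fall of 1.11.

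The kinases JAK1 and TYK2 rose by 0.73 and 0.58 (TYK2 stood at 0.13 less its neighbours, limma adjusted p = 0.0944), and JAK2 stood at -0.13 and did not pass. In a list of nucleic acid sensors and relay genes, 2 of 9 tested genes rose and 4 fell, against 32.1% each way over all genes. MAVS, the mitochondrial adaptor of the helicases, rose by 0.27 and the kinase IKBKE by 0.93. TICAM1, the adaptor of TLR3, fell by 0.80, the kinase TBK1 fell by 0.38, and TRAF3 and TRIM25 fell by 0.36 and fell by 0.32, which became 0.05 and -0.03 less their neighbours. CGAS, IRF3 and AIM2 stood at -0.18, -0.13 and 0.15 and did not pass, although CGAS and IRF3 were lower less their neighbours, at -0.29 each (limma adjusted p = 0.0112 and 0.000913). Of 7 feedback inhibitors, SOCS1 rose by 0.57, CISH rose by 0.29 (0.17 less its neighbours, limma adjusted p = 0.199) and SOCS3 fell by 0.73, and PTPN2, PTPN6, PIAS1 and IRF2 did not pass, at -0.01, 0.06, 0.12 and 0.00. Less their neighbours, PIAS1 was higher, at 0.35, and IRF2 lower, at -0.23 (limma adjusted p = 0.0139 and 0.0245).

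Interferon-induced genes outside the 43 moved in both directions in H1975. The list held 54 such genes, of which 44 were tested, and 17 of these rose, 16 fell and 11 did not pass, with a median change of 0.04. These shares are near those of all genes tested, 32.1% each way. GBP2, a relative of GBP1, rose by 1.89 and TNFSF10 (TRAIL), a death ligand, rose by 1.40. IDO1, a tryptophan-degrading enzyme, fell by 1.44. Among the genes that rose, 3 that serve class I antigen presentation and lie on chromosome 6 did not pass less their neighbours: TAP1 (0.50, or -0.10), PSMB8 (0.50, or -0.11) and PSMB9 (0.88, or 0.30). ADAR, TRIM5, TRIM38, APOL2, APOL6 and IFI30 also rose and did not pass less their neighbours. Among the genes that fell, this was so for ZNFX1 (-0.23, or -0.12). Less their neighbours, IFI16, APOBEC3G and NT5C3A became lower, and ZC3HAV1 and PML became higher. The balance of rises and falls thus depends on this comparison. These genes, like TAP1, PSMB8 and PSMB9, were named after their values were seen. Epithelial markers moved in the same libraries: 5 of 6 fell and KRT8 rose, and their summed FPKM was 1870 and 1860 with ZNF263, against 3950 and 3940 with control. The part of that shift in the fall of the 43 genes was not tested.

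In HCC827 a few members moved in either direction. Of the 43 genes 5 rose and 5 fell (11.6% each), against 13.0% and 6.44% of the 12266 genes tested, and 33 did not pass. The median change was 0.00, against 0.04 over all genes. All 5 falls were among effectors, and none of the 4 sensors passed. The values of the 2 vectors did not overlap in 24 genes, 13 higher and 11 lower with ZNF263, against 35.2% and 18.7% of all genes.

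OASL rose most in HCC827. It stood at 3.73 and 3.80 FPKM with ZNF263, against 1.69 and 1.51 with control, a change of 0.88 ± 0.094 (limma adjusted p = 7.12e-05), and it was called without each library in turn. IFIT2 stood at 7.98 and 9.25 FPKM with ZNF263, against 6.02 and 6.54 with control, a change of 0.40 (limma adjusted p = 0.0191). HERC5 and PARP14 changed by 0.38 and 0.29 (limma adjusted p = 0.0256 and 0.0388), and both lost the call less their neighbours, at 0.26 and 0.20 (0.118 and 0.147). IFIT2, HERC5 and PARP14 did not pass without HCC827 control replicate 1, at 0.35, 0.35 and 0.23 (limma adjusted p = 0.10, 0.113 and 0.179), or without HCC827 ZNF263 replicate 2, at 0.30, 0.43 and 0.36 (0.141, 0.0569 and 0.0548). Without HCC827 ZNF263 replicate 1, HERC5 and PARP14 stood at 0.34 and 0.23 (limma adjusted p = 0.156 and 0.244), and PARP14 also lost the call when a PC9 library or a ZNF263 library of H1975 was left out, which changes the shared spread but not its value. BST2 stood at 27.1 and 23.4 FPKM with ZNF263, against 21.4 and 13.2 with control, a change of 0.56 (limma adjusted p = 0.0259), which was 0.23 without HCC827 control replicate 2 (0.133), 0.45 without HCC827 ZNF263 replicate 1 (0.185) and 0.88 without HCC827 control replicate 1.

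IFI44L and PARP12 fell in HCC827 under each omission of a library. IFI44L stood at 8.28 and 7.52 FPKM with ZNF263, against 13.8 and 12.3 with control, a change of -0.66 ± 0.14 (limma adjusted p = 0.00589). PARP12 stood at 12.2 and 11.99 FPKM with ZNF263, against 17.6 and 16.6 with control, a change of -0.47 ± 0.070 (limma adjusted p = 0.000705). IFI6, OAS3 and OAS2 changed by -0.81, -0.52 and -0.43 (limma adjusted p = 0.0160, 0.0124 and 0.0459), but the control libraries differed among themselves. IFI6 stood at 37.9 and 31.3 FPKM with ZNF263, against 83.6 and 44.4 with control. Without HCC827 control replicate 1 the changes of the 3 genes were -0.36, -0.29 and -0.19 (0.0837, 0.0952 and 0.352), and without HCC827 control replicate 2 they reached -1.26, -0.74 and -0.67. Without HCC827 ZNF263 replicate 2 they were -0.67, -0.46 and -0.42 (limma adjusted p = 0.11, 0.0819 and 0.148). OAS2 was at the edge of the call, and of the 12 omissions those that kept it were the ones that left out a control library of H1975 or HCC827 control replicate 2. In a limma fit on the 4 HCC827 libraries alone, OASL, IFI44L and PARP12 were the 3 members called.

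The control libraries of a line also differed from each other. In HCC827, control replicate 2 was below replicate 1 in 26 of the 43 genes, against 47.4% of all genes, by as much as 1.05 for IFI27 (6.69 and 5.91 FPKM in the ZNF263 libraries, against 12.6 in control replicate 1 and 5.53 in control replicate 2). The number of genes that fell in HCC827 was 2 without control replicate 1, 9 without control replicate 2 and 2 without ZNF263 replicate 2. The number that rose was 2 without ZNF263 replicate 1 or ZNF263 replicate 2, and 3 without control replicate 1. In H1975, control replicate 2 was above replicate 1 in 42 of the 43 genes, with ISG20 the exception, against 52.9% of all genes. The median difference was 0.26 on the log2 scale, against 0.006 over all genes. Libraries of other groups differed too. Replicate 2 was above replicate 1 in 13 of the 43 genes in the ZNF263 libraries of HCC827, against 46.4% of all genes. It was above in 13 in the control libraries of PC9, against 44.8%. In the ZNF263 libraries of PC9 and H1975 it was above in 23 and 17, against 48.3% and 49.8%. The part of such library differences in the changes was not tested beyond leaving libraries out.

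**Figure D5:**
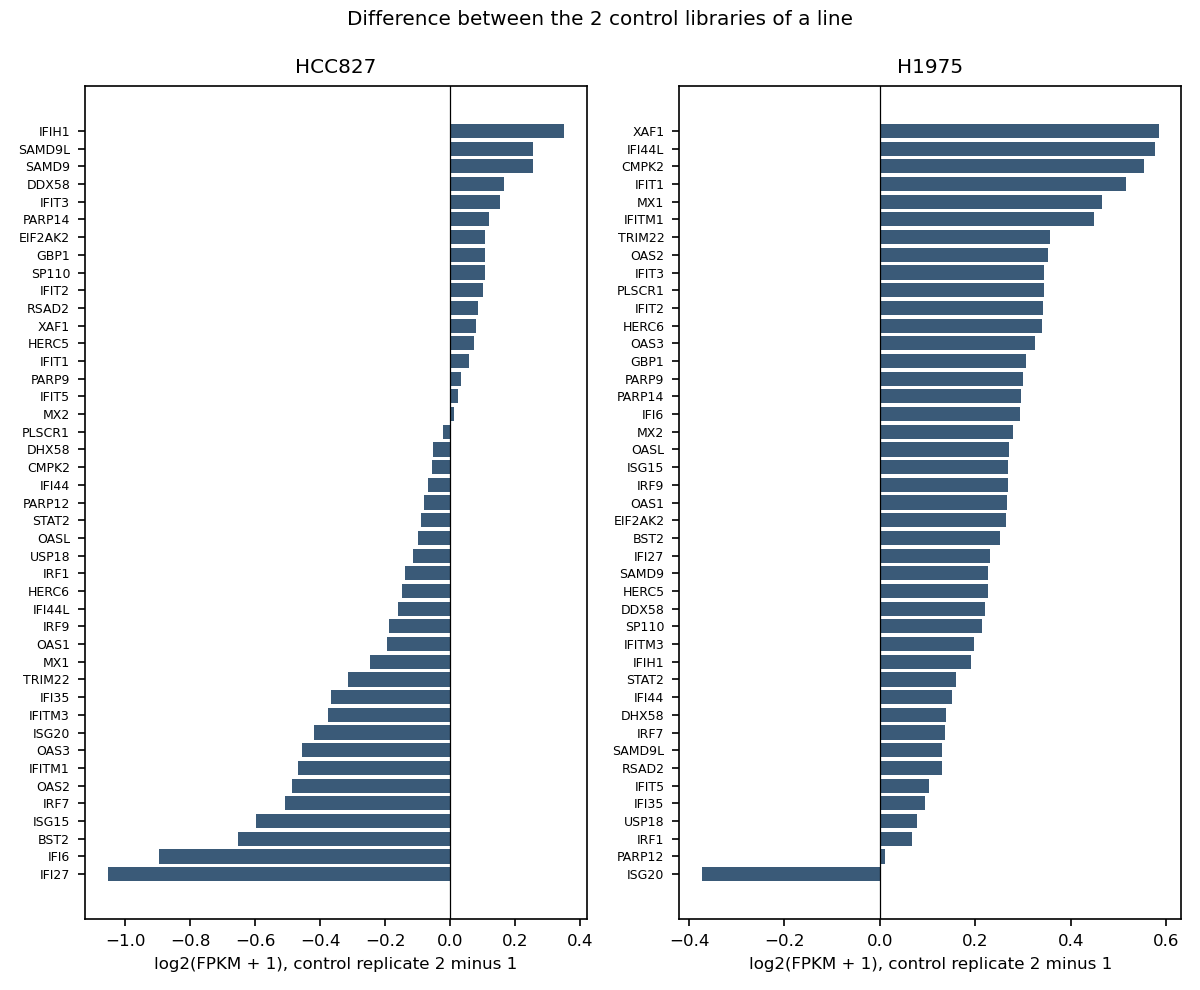
Difference between the control libraries of a line, as log2(FPKM + 1) of replicate 2 minus replicate 1, for each gene in HCC827 and H1975. In H1975, 42 of 43 bars point up (median 0.26), and in HCC827, 26 point down, with IFI27 lowest at -1.05.

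Upstream in HCC827, IFNGR2 rose by 0.20 (0.17 less its neighbours, limma adjusted p = 0.0873), and CGAS and TRAF3 fell by 0.26 and fell by 0.23. Of the 44 tested genes outside the group, 9 rose and 3 fell, against 13.0% and 6.44% of all genes. IDO1, which fell in H1975, rose by 0.64. IFITM2 rose by 0.54, and CD274, the immune checkpoint ligand PD-L1, fell by 0.56.

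In PC9 most members were low. XAF1 was listed at 0 in all 4 libraries. OAS2, MX2, RSAD2 and BST2 were above 0 in 1 control library each, at 0.0165, 0.0241, 0.0132 and 0.0473 FPKM. Of the 43 genes 5 rose (11.6%), 1 fell (2.33%) and 37 did not pass, against 7.21% and 4.12% of the 12623 genes tested, with a median change of 0.04 against 0.00 over all genes. The values of the 2 vectors did not overlap in 25 genes, 20 higher and 5 lower with ZNF263, against 28.4% and 29.2% of all genes.

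IFITM3 stood at 2.30 and 2.70 FPKM with ZNF263, against 1.06 and 0.794 with control, a change of 0.86 ± 0.11 (limma adjusted p = 0.00027), from 28 and 34 reads with ZNF263, against 14 and 11 with control. IFI35 stood at 4.91 and 5.54 FPKM with ZNF263, against 2.63 and 2.83 with control, a change of 0.74 ± 0.12 (limma adjusted p = 0.00129). These 2 genes were called without each library in turn. ISG15 stood at 3.46 and 4.14 FPKM with ZNF263, against 2.13 and 1.66 with control, a change of 0.73 ± 0.15 (limma adjusted p = 0.00816). PARP14 and PARP9 changed by 0.44 and 0.41 (limma adjusted p = 0.00655 and 0.0173). ISG15, PARP14 and PARP9 did not pass without PC9 control replicate 2, at 0.61, 0.42 and 0.39 (0.104, 0.0668 and 0.115), or without PC9 ZNF263 replicate 2, at 0.63, 0.40 and 0.36 (0.0837, 0.0600 and 0.120). PARP9 also did not pass without PC9 ZNF263 replicate 1 (0.46, 0.0575) or PC9 control replicate 1 (0.42, 0.0831). The number of genes that rose was 2 under each omission of a second replicate. In a limma fit on the 4 PC9 libraries alone, 3 genes rose (IFI35, IFI44L and PARP9) and none fell, with IFITM3 (0.0522), PARP14 (0.0528), ISG15 (0.0737) and IFIT5 (0.0809) among those that did not pass.

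IFIT5 was the 1 gene that fell in PC9, at 7.07 and 6.92 FPKM with ZNF263, against 9.24 and 8.55 with control, a change of -0.31 ± 0.072 (limma adjusted p = 0.0160). It did not pass without any 1 of the 4 PC9 libraries, with changes between -0.36 and -0.26. EIF2AK2, the most abundant member in PC9, stood at 14.9 and 15.8 FPKM with ZNF263, against 14.5 and 15.4 with control. Upstream, MAVS rose by 0.25, and no other tested gene of the ligand, receptor, kinase, relay and inhibitor lists passed. Of 47 tested interferon-induced genes outside the group, 11 rose and 1 fell, against 7.21% and 4.12% of all genes. LGALS3BP, a secreted glycoprotein, IFITM2 and UBE2L6, the conjugating enzyme of ISG15, rose by 1.48, 1.33 and 0.76.

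The change with ZNF263 differed between the lines in 41 of the 43 genes by an F test in limma, against 60.3% of the 12218 genes tested in all lines. HERC5 and GBP1 did not pass (limma adjusted p = 0.0609 and 0.705). The change in H1975 was lower than that in HCC827 in 38 genes and higher in 1, MX2, against 30.1% and 23.6% of all genes. Against PC9, the change in H1975 was lower in 38 genes and higher in 2, MX2 and BST2, against 27.3% and 26.8% of all genes. In PC9, however, 23 of the 43 genes reached 1 FPKM in at least 1 library. Members near 0 in PC9 had no room to fall there, so for them a lower change in H1975 says little about PC9. For XAF1, listed at 0 in all 4 PC9 libraries, the difference of -0.67 repeats the change in H1975. Between HCC827 and PC9, 1 gene was higher in HCC827 (OASL) and 5 were lower (IFI35, IFI44L, IFITM3, ISG15 and PARP12), against 5.29% and 4.30%.

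Calls in opposite directions in a pair of lines involved 5 of the 43 genes, against 8.46% of the 12218 genes tested in all lines. OASL and IFIT2 rose in HCC827 and fell in H1975, ISG15 and PARP9 rose in PC9 and fell in H1975, and PARP14 rose in both PC9 and HCC827 and fell in H1975. The 5 genes that fell in HCC827 were among the 37 that fell in H1975. Since those 37 make up 86.0% of the 43 members, this overlap says little about the lines. Across the 43 genes the changes in HCC827 and H1975 had Pearson r = 0.53 and Spearman rho = 0.51, and those in PC9 and H1975 had r = 0.19 and rho = -0.02. These are descriptions across genes, which are not independent, and the lines share no control library.

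In the mean over the lines, 3 genes were higher with ZNF263 (IFITM3 by 0.62, BST2 by 0.39 and IFI35 by 0.17) and 28 were lower, against 28.9% and 23.9% of all genes, and 12 did not pass. This mean rests largely on H1975: 26 of the 37 genes that fell in H1975 were called in neither PC9 nor HCC827. IFI27, OAS1 and IFI6 had means of -1.34, -0.93 and -1.03, while the changes in PC9 were 0.16, -0.24 and 0.15, none of which passed.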

How the data were processed

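The authors deposited FPKM values, 1 column for each of 12 libraries. Per the submitters' processing notes the build was GRCh38.p13; aligner, counting tool and any use of strand: not given in the sources used here. Per the labels' protocols, TRIZOL was used for RNA and a SMARTER kit for mRNA-seq libraries. Groups follow the cell line and genotype labels. Of 20030 entries, 27 with names turned into dates were left out. HCC827 and H1975 had no value for 3383 and 3339 genes, and PC9 for none, so PC9 was treated as a separately made table.

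Genes with at least 1 FPKM in 2 libraries were tested on log2(FPKM + 1) by limma 3.58.1 (R 4.3.3), with 1 mean per group, a spread shared by the 6 groups, a trended prior and Benjamini-Hochberg adjustment over all genes. The scale understates changes of low genes. Contrasts were ZNF263 minus control per line, their mean and their differences. Every adjusted p rests on a limma fit. For a change less its neighbours, the neighbour median was subtracted and the p-value recomputed outside limma from limma's SE, then adjusted in the same way. This treats the median as fixed and leaves out its own spread. Read numbers were recovered from the steps between FPKM values, which were whole for 99.67%, 100% and 99.87% of 1500 genes in PC9, HCC827 and H1975; in PC9 they hold up to a factor common to a gene. Across the 43 genes the reads per library ran from 0 to 3276 in PC9, from 11 to 3268 in HCC827 and from 9 to 18598 in H1975, and higher numbers give less counting error. The fit was tested on simulated data.

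The members and all gene lists were chosen with earlier results of these data known. All members were named by role, with the tested genes of the ligand, receptor, kinase, relay and inhibitor lists and, per line, the 3 called genes with the largest change among other interferon-induced genes. A gene of these lists is not reported here. Alternatives were a pseudocount of 0.1, other filters, other scalings, fits within a line, a replicate block, neighbours and leaving out each library.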

Additional observations from a re-analysis of the deposited data

Results flagged for a closer look

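The change with ZNF263 differed between the 3 lines in 41 of the 43 genes by limma's F test, adjusted over all genes. The share over the 12218 genes tested in all lines was 60.3%. Among the 41 were 5 genes called in opposite directions in a pair of lines, against 8.46% of the 12218 genes. The F test asks for any difference between lines, not for opposite directions. Members near 0 in PC9 had no room to fall there, so for them a difference from a fall in H1975 says little about PC9. Its limma adjusted p was 2.39e-06 for OASL, 0.000148 for IFIT2, 0.000105 for ISG15, 9.85e-07 for PARP9 and 0.000108 for PARP14. For the other 36 genes the adjusted p lay between 7.97e-08 and 0.031.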

How the results depend on the processing

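The 37 falls in H1975 were counted again at 37 under each omission of 1 library, and at 34 to 37 under the other alternatives (34 when at least 1 FPKM in 4 libraries was asked, where 40 members were tested; 36 less neighbours). Leaving out 1 library gave 2 to 3 rises in H1975, 2 to 6 rises and 2 to 9 falls in HCC827, 2 to 6 rises and 0 to 1 falls in PC9, 39 to 41 genes that differed between lines and 30 to 35 called in the mean. A left-out library leaves a lone library, which is assumed to vary like the others. Fits on the 4 libraries of a line gave 3 rises and 0 falls in PC9 and 1 and 2 in HCC827. With no filter HCC827 had 1 rise and 3 falls, less neighbours 3 rises, and with a pseudocount of 0.1 it had 2 rises and PC9 had 8 rises and 2 falls. The share of all genes called is not given for any alternative or omission, so these counts have no background beside them. BST2 in H1975 turned to -0.19 less its neighbours. The cause was not tested. In PC9 and HCC827 the counts are small, and low read numbers in PC9 limit what could be called.

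Same-numbered libraries did not deviate together (correlations of 0.037, 0.089 and -0.043 in PC9, HCC827 and H1975), so the numbers were not taken as pairs. With a replicate block, 6 genes rose and 1 fell in PC9, 5 rose and 6 fell in HCC827, 3 rose and 37 fell in H1975, 41 differed between lines and 32 were called in the mean.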
